A study of Macaca fascicularis with 16 samples.

Results

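Gene expression in the mammary gland of ovariectomized, post-menopausal cynomolgus macaques was compared between 4 females treated with conjugated equine estrogens (CEE, 0.042 mg/kg) together with medroxyprogesterone acetate (MPA, 0.167 mg/kg) and 4 females left untreated. These 8 arrays, 1 per animal, were taken from a series of 16. The other 8 came from 4 females given CEE alone at the same 0.042 mg/kg and 4 given tibolone at 0.2 mg/kg, and all 16 animals were female, ovariectomized and post-menopausal. Total RNA was hybridized to a 1-colour Affymetrix array designed for the rhesus macaque, a related species, and neither the duration of treatment nor the animals' ages are stated by the labels. All probe sets other than Affymetrix controls were used if their signal, a linear intensity, exceeded the table's median of 60.2 on at least 4 of the 16 arrays. This left 28704 of 52865 probe sets and 10452 named genes, each represented by its brightest tested probe set. Arrays are written as controls 1 to 4 and CEE+MPA arrays 1 to 4, in the order of deposition, and numbers do not pair animals.

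CEE is a mixture of estrogens used in hormone therapy, and MPA is a synthetic progestin that binds the progesterone receptor and, less strongly, the androgen and glucocorticoid receptors. In the mammary gland estrogen acts through receptors in a share of luminal cells and raises the progesterone receptor there. Progestins then act on the same cells, which signal to their neighbours through secreted ligands such as RANKL, Wnt proteins and amphiregulin. Prolactin acts beside them through its receptor, the kinase JAK2 and the transcription factors STAT5A and STAT5B, which drive alveolar differentiation and milk protein genes. The gland is built of luminal and contractile basal (myoepithelial) cells in a stroma of fibroblasts, collagen-rich matrix, fat, vessels and immune cells.

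Casein and epithelial genes, markers of the labelled tissue, were present on all 8 arrays. Signals of CSN2, which encodes beta-casein, were 12109, 12162, 12139 and 11988 on the controls and 13751, 15136, 15197 and 15596 on the CEE+MPA arrays, and those of EPCAM, an epithelial adhesion gene, were 2076, 1587, 1978 and 2064 and 2067, 2672, 2244 and 2624. Skeletal muscle genes, foreign to the gland, stood high on control 1 and CEE+MPA array 1 (list means of 2.34 and 1.19 on the log2 scale, centred per gene) and at or below 0.044 on the other 6 arrays of both groups. Their summed signal ran from 1592 to 18765 on the control arrays and 1348 to 6821 on the CEE+MPA arrays, and 0 of the 17 tested members were higher and 0 lower (median log2 fold change -0.14). That median was 0.43 without control 1, -0.61 without control 2, -0.62 without CEE+MPA 1 and 0.074 without CEE+MPA 2. Spike-in control transcripts were lower on controls 3 and 4 and CEE+MPA arrays 1 and 4 (log2 signal of dap below 7.5) than on the rest. The log2 ratio of the 3 prime to the 5 prime GAPDH probe set was 0.0085 to 0.247 on those 4 arrays and 0.663 to 0.778 on the others. Each such set held 2 arrays of both groups, and the skeletal muscle median was 0.52 in the lower set and -1.22 in the higher. The sources do not say which RNA extraction or hybridization days they belong to.

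Over the whole array, more genes were lower with CEE+MPA than were higher. In a limma model of log2(signal + 16) over all 16 arrays, with p-values adjusted by Benjamini and Hochberg over 28704 probe sets and a threshold of 0.05, 561 probe sets were higher and 1258 lower than in the controls, 6.34% of those tested. The share that was lower, 69.2%, was 49.8% (959 of 1926) when each array was centred on its median and 55.2% of 1938 under a stricter filter at the 75th percentile of signal. Among named genes 286 rose (2.74% of 10452) and 518 fell (4.96%). The genes that rose had a median log2 fold change of 0.67, and 44 exceeded 1. The genes that fell had a median of -0.92, and 221 were beyond -1, against a median of 0.012 over all genes tested. Of the 286 genes that rose, 262 had all 4 CEE+MPA arrays above all 4 controls, where 9.04% of all genes did, and 488 of the 518 that fell had all 4 below, where 10.5% did. The call and the separation rest on the same values, so the separation is no separate support. The count depended on single animals: it was 348 without control 2, 552 without CEE+MPA 3, 658 without CEE+MPA 2, 707 without control 1, 1058 without control 3 and 1202 without CEE+MPA 1. Without the arrays of high skeletal muscle signal it was 980. Among the 2 against 2 arrays with higher spike-in signal 424 were higher and 950 lower. Among the 2 against 2 with lower signal limma called 0, while 2684 had p under 0.05 before adjustment (6927 in the other set).

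**Figure D1:**
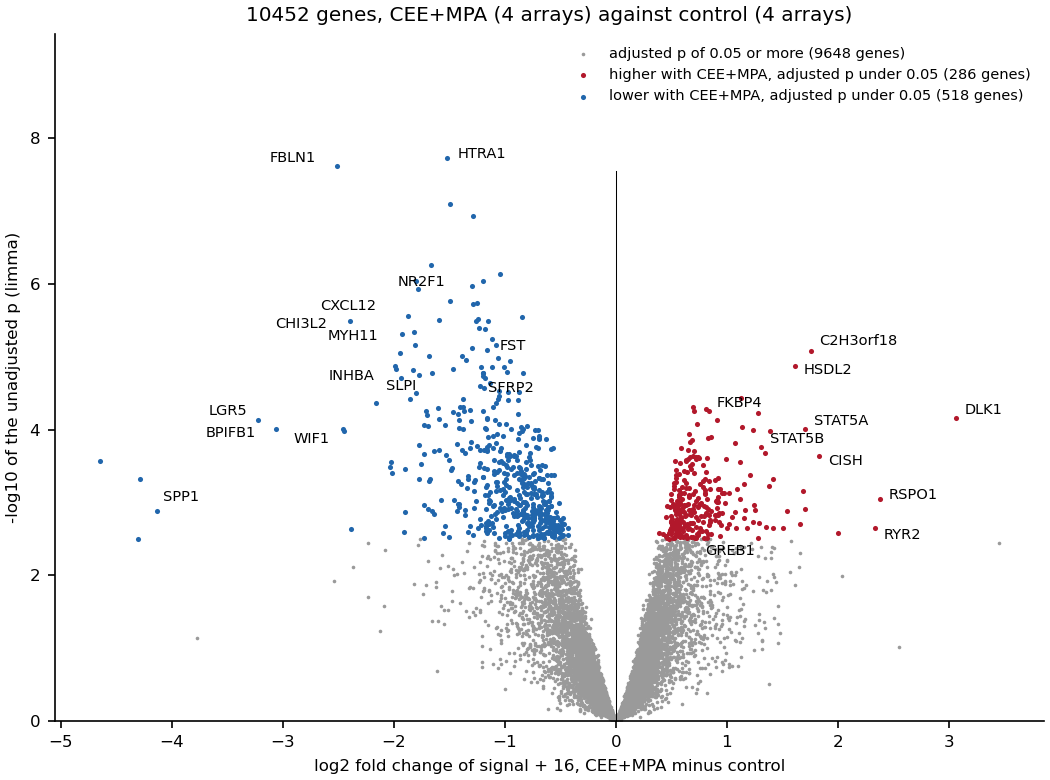
Log2 fold change (x axis, CEE+MPA minus control, of signal + 16) against -log10 of the unadjusted limma p (y axis) for 10452 genes, 1 point each, with 286 genes that rose in red, 518 that fell in blue and the rest in grey. The blue points reach further from 0 than the red ones, with 221 falls beyond -1 and 44 rises beyond 1.

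The 47 gene lists described next place these changes in the tissue. Contractile, proteoglycan, basal, secreted defence, nerve and chemokine lists held the largest shares of genes that fell, up to 11 of 20, while ribosomal, nucleolar, respiratory and amino acid lists held genes that rose. Each list is given by the number of tested members past the threshold beside the shares over all genes, 2.74% higher and 4.96% lower. The 122 named genes that passed were refitted in 20 other settings, 8 of which left out 1 array of the 2 groups, and 30 of them passed in all 20. CH25H, RERG, JPH2 and MAL passed in each of the 19 in which they were tested, being too dim for the stricter filter. None of the 122 changed direction. Among genes with several tested probe sets, the mean of the probe sets gave some changes that were smaller by over 1.5 times. Of these WFDC2 (-1.22), CXCL12 (-1.10), JAK2 (-0.63), P4HA1 (-0.75), HTRA1 (-1.01), ACKR1 (-0.67) and SERPINA3 (-0.93) still passed. SETBP1 (0.30), ID3 (-0.51), DLL1 (-0.33), PMP22 (-0.30), ATP5F1C (0.30) and RPL29 (0.24) did not. In that setting p-values were adjusted over the 10452 named genes, not over probe sets. An offset of 64 lowered the changes of the dim genes GREB1 (0.48), APCDD1L (-1.17), SDC2 (-0.54) and SLC6A2 (-0.65) by over 1.5 times too. Below the table's median on all 4 arrays of 1 group were GREB1 (controls) and LGR5, BPIFB1, APCDD1L, SDC2, FGF9 and SLC6A2 (CEE+MPA), so that the size of their changes depends on the offset. The medians of the coregulator, progesterone receptor target, prolactin, protein folding and solute carrier lists lie within 0.04 of 0 and changed sign under quantile normalization or median centring. Single arrays moved other medians by over 1.5 times: the secreted defence median was -0.84 without control 2, that of the nerve list -0.36 without control 2, that of the activin, TGF-beta and BMP list -0.55 without control 4, and that of the immediate early list -0.46 without control 1. The androgen and apocrine median was 0.35 without CEE+MPA 1, and the lymphoid median -0.076 without CEE+MPA 4. In the sets of lower and higher spike-in signal the estrogen receptor target medians were -0.36 and 0.24.

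**Figure D2:**
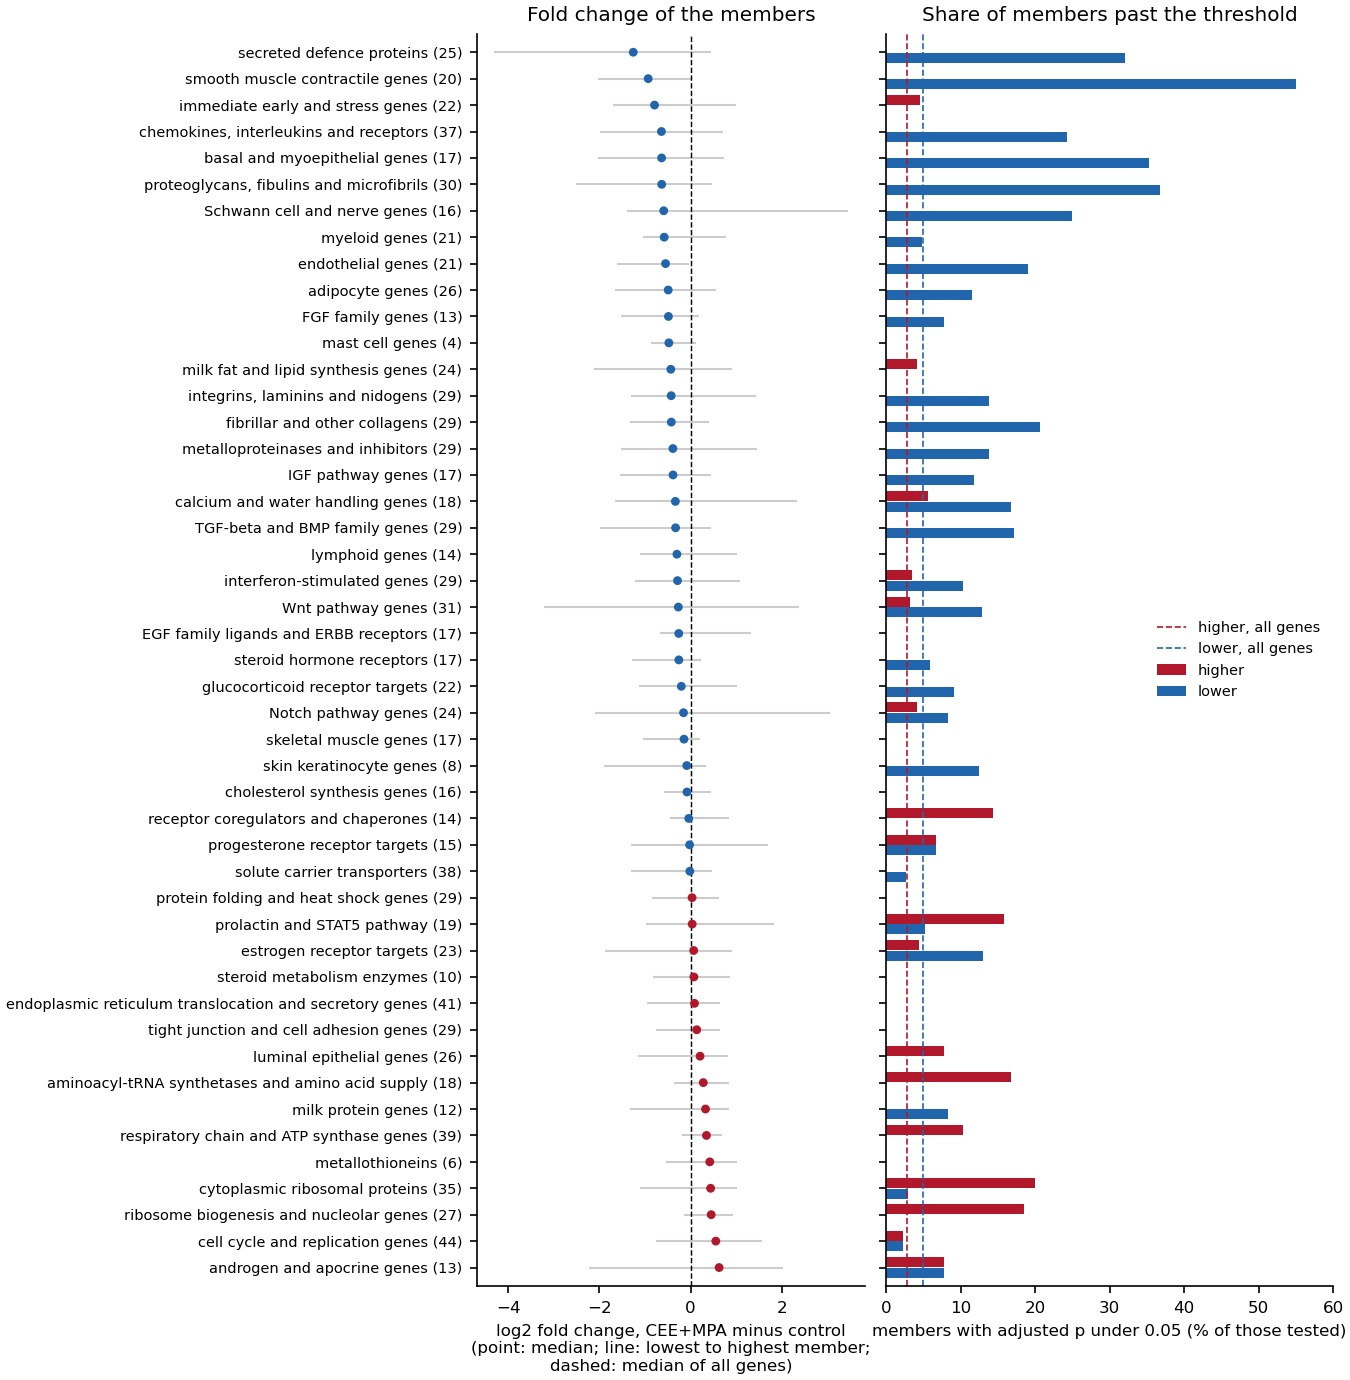
The left panel gives the median (point) and the range (line) of the log2 fold change of the tested members of 47 lists, the number of members in brackets, with the median of all genes as a dashed line at 0.012. The right panel gives the percent of members with an adjusted p under 0.05, higher in red and lower in blue, with dashed lines at 2.74% and 4.96% for all genes. The smooth muscle list has the longest blue bar, 11 of 20 genes, and the ribosomal protein list the longest red bar, 7 of 35.

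The genes nearest to the hormones themselves held few calls. Among 17 tested steroid and nuclear receptors 0 rose and 1 fell (median -0.26, with 13 negative changes). Their summed signal was 11146 to 13346 on the control arrays and 8479 to 9867 on the CEE+MPA arrays, so the 2 groups did not overlap. The member that fell was NR2F1, an orphan nuclear receptor also called COUP-TFI. Its signals were 1303, 1164, 1260.3 and 1001 on the controls and 515, 577, 373 and 438 on the CEE+MPA arrays, a log2 fold change of -1.30 ± 0.17 (SE; limma, adjusted p = 0.00189). Every treated animal lay below every control. PGR, the progesterone receptor gene and a textbook estrogen target, had signals of 15.6, 20.3, 13.7 and 21.3 in controls and 11.7, 27.5, 8.75 and 22.6 with CEE+MPA. All 8 values lie below the table's median, so no difference is given for these groups, and the gene passed the filter through other arrays. The 4 arrays with CEE alone read 152, 98.8, 66.9 and 36.6. ESR1, the estrogen receptor alpha gene, lay under the filter on low values and was not tested, with signals of 53.8, 35.4, 43.9 and 43.6 against 49.8, 41.0, 15.7 and 37.4. NR3C1, the glucocorticoid receptor gene, did not pass (0.23 ± 0.22, adjusted p = 0.56). FKBP4, a co-chaperone of the HSP90 complex that holds steroid receptors ready for hormone, rose. It had 971, 1006, 1431 and 1189 on the controls and 2181, 1963, 1958 and 2056 on the CEE+MPA arrays (0.83 ± 0.15, adjusted p = 0.00853), with no overlap and 4 treated animals close together. PHB2, which encodes a prohibitin able to repress the estrogen receptor, was the other coregulator that rose (0.51 ± 0.14, adjusted p = 0.0401), 2 of 14 in all with 0 lower (median -0.039).

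Estrogen receptor targets were divided. Of 23 tested, 1 rose and 3 fell (median 0.069), IGFBP4 of the latter being given below. GREB1, a cofactor of the estrogen receptor and among its most direct targets, read 41.4, 21.7, 23.3 and 30.1 on the controls, 431, 514, 398 and 234 with CEE alone and 69.9, 97.7, 57.8 and 43.1 with CEE+MPA. Treated animals lay above all controls (0.86 ± 0.24, adjusted p = 0.0466), and far below all 4 animals given CEE alone. CXCL12, a chemokine made by stromal cells, fell from 1428, 1530.0, 1769.7 and 1760.4 to 593, 248, 485 and 469 (-1.88 ± 0.26, adjusted p = 0.00304), without overlap. RERG, a small GTPase gene linked to estrogen receptor in breast cancer, fell by 1.31 on the log2 scale (adjusted p = 0.00849), with 189.5, 175, 148 and 144 on the controls and 74.7, 41.0, 47.3 and 66.6 on the CEE+MPA arrays. Progesterone receptor targets included 1 gene that rose, STAT5A, and 1 that fell, out of 15 (median -0.021). The gene that fell was F3, which encodes tissue factor, the starter of blood clotting. Its signals were 1181, 597, 568 and 574 against 377, 235, 249.8 and 245 (-1.30 ± 0.26, adjusted p = 0.0131), with control 1 highest and no overlap. Of 22 glucocorticoid receptor targets 0 rose and 2 fell, CRISPLD2, a secreted protein gene (-0.80 ± 0.19, adjusted p = 0.0267), and ADAMTS1, a matrix protease gene (-1.14 ± 0.32, adjusted p = 0.0438). FKBP5, a classical target of progestins and glucocorticoids, lay under the filter, at 42.2, 66.5, 7.80 and 52.8 against 35.6, 43.1, 38.0 and 37.9. Of 6 tested genes of the metallothionein list 0 rose and 0 fell (median 0.42, 4 of 6 positive, and a median of 0.22 without control 2). Their summed signal was 16313 to 31156 on the control arrays and 28794 to 43608 on the CEE+MPA arrays. MTF1, a regulator of these genes, had the smallest p (-0.54 ± 0.19, adjusted p = 0.0966). NR2F1, FKBP4, CXCL12, RERG, IGFBP4 and F3 still passed with any 1 array left out. PHB2, GREB1, CRISPLD2 and ADAMTS1 each lost the call without control 1, 2 or 3 or CEE+MPA 2 or 3, 3 of them without control 4 or CEE+MPA 1 and 1 of them without CEE+MPA 4 (highest adjusted p = 0.145). PHB2 (0.0675), GREB1 (0.057) and ADAMTS1 (0.0534) lost the call under quantile normalization and ADAMTS1 (0.0526) with median centring, and 4 of the 10 calls ended in at least 1 of the other 10 settings (highest adjusted p = 0.146).

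The prolactin arm showed a rise of STAT5 itself. Of 19 tested genes of this pathway 3 rose and 1 fell (median 0.036). STAT5A read 286, 189.8, 436 and 701 on the controls and 1198, 1031, 1273 and 1375 on the CEE+MPA arrays, a log2 fold change of 1.71 ± 0.33 (adjusted p = 0.0107). All treated animals stood above all controls, and control 4 was the highest of the untreated. STAT5B read 1414, 1094, 1624 and 1912 against 2860.3, 3848, 4347 and 3881, a change of 1.31 ± 0.27 (adjusted p = 0.014), and each of its 4 tested probe sets rose. CISH, a STAT5 target that damps cytokine signalling, read 1094, 639, 286 and 762 against 2216, 2940.5, 1347 and 3041, a change of 1.83 ± 0.39 (adjusted p = 0.0157). No treated animal overlapped the controls in either gene. JAK2, the kinase between the receptor and STAT5, moved the other way, from 2438, 2148, 2463 and 2029 to 1321, 1488, 1083 and 777 (-0.99 ± 0.22, adjusted p = 0.0213), and again the groups did not overlap. PRLR, the prolactin receptor gene, overlapped between groups (358, 201, 504 and 640.2 against 594, 469, 655 and 1153; 0.77 ± 0.42, adjusted p = 0.281). ELF5, a transcription factor of alveolar luminal cells, had all 4 treated animals above all controls (7831, 4386, 8310.1 and 10616 against 13369, 14665, 16004 and 14907) but missed the threshold (0.99 ± 0.33, adjusted p = 0.0848).

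Milk genes differed little from the untreated gland. Of 12 milk protein genes 0 rose and 1 fell (median 0.33, and 0.027 under quantile normalization). CSN2 (0.30 ± 0.14, adjusted p = 0.205) and CSN3, the kappa-casein gene (0.38 ± 0.20, adjusted p = 0.258), had every treated animal above every control without passing. LALBA, which encodes alpha-lactalbumin of the lactose synthase, read 16713, 16922, 10825 and 17956 on the controls and 20053, 2948, 11408 and 20179 on the CEE+MPA arrays, and CEE+MPA array 2 was the lowest of the 8. LPO, the lactoperoxidase gene, was the member that fell, from 1083, 739, 784 and 597 to 287, 371, 344 and 222 (-1.33 ± 0.30, adjusted p = 0.0214), without overlap. In the list for milk fat and lipid synthesis 1 of 24 rose and 0 fell (median -0.43). The median was -0.14 without CEE+MPA 2, -0.24 without control 2 and -0.26 without control 1, and -0.0042 and -0.52 in the sets of lower and higher spike-in signal. ACSS2, which makes acetyl-CoA from acetate, read 705, 811, 610.0 and 809 against 1353, 1042, 1425 and 1868 (0.92 ± 0.22, adjusted p = 0.0251), all treated animals above the controls. None of 16 cholesterol synthesis genes passed either way (median -0.078). PMVK, phosphomevalonate kinase, had the smallest p (0.45 ± 0.13, adjusted p = 0.0585). STAT5A still passed with any 1 array left out. STAT5B lost its call without control 2 (adjusted p = 0.0594), CISH without control 2 (adjusted p = 0.0523) and LPO without control 1 or 2 (highest adjusted p = 0.067). JAK2 lost its call without control 1 or 2 or CEE+MPA 3 (highest adjusted p = 0.0646), and ACSS2 lost its call without control 1, 2 or 3 or CEE+MPA 3 or 4 (highest adjusted p = 0.0664). Of the 6 calls, 4 ended in at least 1 of the other 10 settings (highest adjusted p = 0.0926).

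Among Wnt pathway genes RSPO1 rose, and WIF1, SFRP2, LGR5 and WLS fell. Of 31 tested Wnt pathway genes 1 rose and 4 fell (median -0.27). RSPO1, the ligand R-spondin 1 that strengthens Wnt signals, read 182, 207, 169 and 194 on the controls, 1073, 907, 1140.2 and 1078 with CEE alone and 956, 3087, 1453 and 270.3 with CEE+MPA (2.38 ± 0.58, adjusted p = 0.0285). The controls were close to each other, CEE+MPA array 2 was highest, and array 4 was the treated animal nearest to them. LGR5, the receptor for R-spondins and a stem cell marker in several epithelia, fell from 279.5, 1088, 574 and 218 to 55.3, 33.8, 22.1 and 27.8 (-3.22 ± 0.61, adjusted p = 0.00967). Both groups were clear of each other, with control 2 highest. WIF1, a secreted protein that binds Wnt ligands, fell from 989, 1315, 973 and 320.2 to 301, 148, 67.6 and 97.4 (-2.45 ± 0.48, adjusted p = 0.0108). SFRP2, another secreted Wnt binder, fell from 2065, 1841, 3285 and 1426 to 1016, 819, 732 and 946 (-1.22 ± 0.21, adjusted p = 0.0058), and WLS, which carries Wnt proteins to the cell surface, by 0.96 on the log2 scale (adjusted p = 0.0457). In all of these falls the highest treated animal lay under the lowest control. WNT4, the ligand that progesterone induces in mouse mammary gland, read 66.4, 64.9, 68.2 and 159 against 138, 184, 259 and 172 and overlapped (1.01 ± 0.45, adjusted p = 0.182). TNFSF11, the gene of RANKL, was under the filter and not tested. Its signals were 4.30, 2.30, 4.21 and 8.19 on the controls and 10.8, 12.3, 17.6 and 31.6 on the CEE+MPA arrays, higher on each treated array but all below the table's median. AREG, the gene of amphiregulin, overlapped between groups (204, 92.2, 261 and 614 against 304, 1103, 581 and 179; 0.83 ± 0.58, adjusted p = 0.412).

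DLK1 showed the largest rise of any gene named by the rule for the size of a change. This membrane protein of the Notch ligand family is known for keeping precursor cells of fat undifferentiated. Its signals were 197, 28.2, 182 and 157 on the controls, 1104, 514, 462 and 186 with CEE alone and 1201, 1182, 708 and 1467 with CEE+MPA (3.06 ± 0.57, adjusted p = 0.00948). Control 2 was the lowest of the 8 arrays, and no treated animal came near a control. In the Notch list 1 of 24 tested genes rose, DLK1, and 2 fell (median -0.15). These were the ligands DLL1 (-0.82 ± 0.23, adjusted p = 0.0475) and JAG1 (-0.51 ± 0.15, adjusted p = 0.0495). LGR5, WIF1, SFRP2 and DLK1 still passed with any 1 array left out. RSPO1, WLS, DLL1 and JAG1 each lost the call without control 1, 2 or 3 or CEE+MPA 2 or 3, 3 of them without CEE+MPA 1, 2 of them without CEE+MPA 4 and 1 of them without control 4 (highest adjusted p = 0.16). WLS (0.0574), DLL1 (0.0744) and JAG1 (0.0681) lost the call under quantile normalization and WLS (0.0581), DLL1 (0.0559) and JAG1 (0.0756) with median centring, and 4 of the 8 calls ended in at least 1 of the other 10 settings (highest adjusted p = 0.214).

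**Figure D3:**
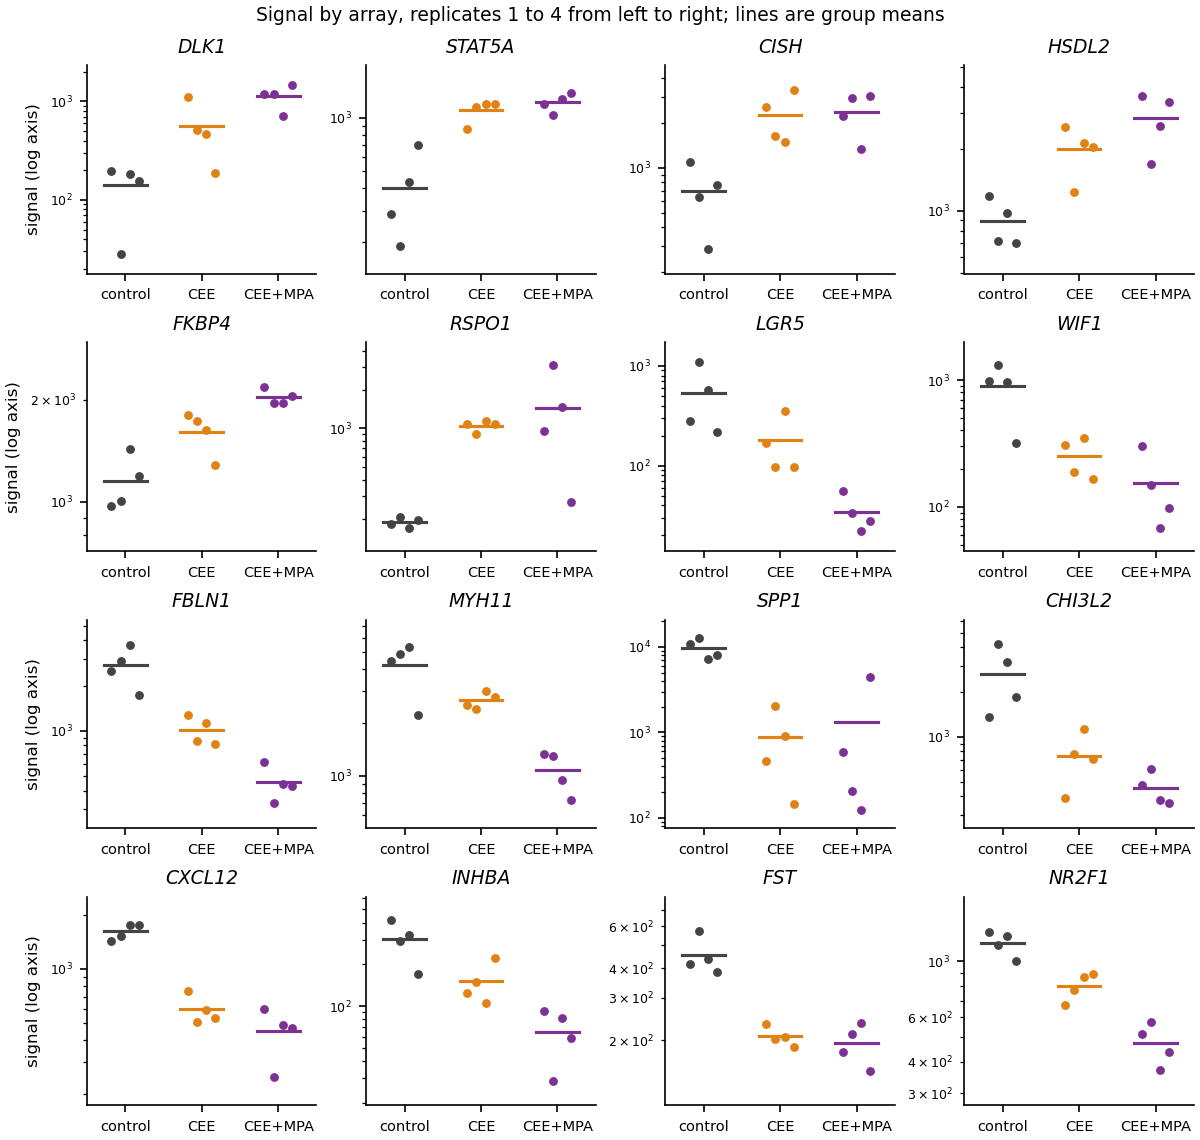
Signal (y axis, log scale) of 16 genes on the 4 control, 4 CEE and 4 CEE+MPA arrays, replicates 1 to 4 from left to right in each group, with lines at the group means. DLK1, STAT5A, CISH, HSDL2, FKBP4 and RSPO1 lie higher with CEE+MPA than in controls, and the other 10 lower, with no overlap between control and CEE+MPA arrays in any of the 16.

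Other large rises came from genes of varied function. RYR2, a calcium release channel, read 82.0, 67.5, 88.8 and 111 on the controls and 763, 201, 554 and 723 on the CEE+MPA arrays (2.34 ± 0.64, adjusted p = 0.0426). PADI2, a peptidylarginine deiminase that citrullinates histones, read 1603, 615, 1491 and 1295 against 3506, 3687, 3872 and 4487 (1.71 ± 0.43, adjusted p = 0.0331). HSDL2, a peroxisomal protein of the steroid dehydrogenase-like family, read 1181, 715, 972 and 699 against 3604, 1689.6, 2568 and 3364 (1.61 ± 0.26, adjusted p = 0.00442). All treated animals exceeded all controls in these genes, as the rule that named them required. C2H3orf18, an open reading frame of undescribed function, read 116, 116, 108 and 221 against 402, 601, 538 and 455 (1.76 ± 0.27, adjusted p = 0.0042), with control 4 nearest to the treated animals. SMIM1, a small membrane protein gene of the Vel blood group (1.68 ± 0.40, adjusted p = 0.0258), NEXMIF, a neurite extension gene (1.65 ± 0.45, adjusted p = 0.0403), POC1A, a centriole gene (1.54 ± 0.40, adjusted p = 0.0338), and SETBP1, which encodes a SET binding protein (1.5 ± 0.41, adjusted p = 0.0424), completed the 12 largest rises. The call of SETBP1 rests on 1 of its 2 tested probe sets, and the mean of both changed by 0.30 (adjusted p = 0.472). Of the 12 largest falls, CH25H, the cholesterol 25-hydroxylase, read 452, 315, 249 and 222 against 64.9, 91.6, 41.4 and 32.6 (-2.16 ± 0.39, adjusted p = 0.00774). APCDD1L, related to a Wnt inhibitor, read 112, 179, 115 and 88.2 against 9.26, 13.4, 39.7 and 13 (-2.04 ± 0.45, adjusted p = 0.0179), and TMEM200A, a membrane protein gene, 292, 492, 185 and 130.4 against 80.2, 42.4, 30.6 and 49.0 (-2.02 ± 0.45, adjusted p = 0.0196). Treated and control animals did not overlap in these falls, again as that rule required. C2H3orf18, HSDL2 and CH25H still passed with any 1 array left out. APCDD1L lost its call without control 2 or CEE+MPA 2 (highest adjusted p = 0.0704). RYR2, PADI2, SMIM1, NEXMIF, POC1A, SETBP1 and TMEM200A each lost the call without control 2 or CEE+MPA 3, 6 of them without control 1 or CEE+MPA 1 or 2, 5 of them without control 3, 3 of them without CEE+MPA 4 and 1 of them without control 4 (highest adjusted p = 0.146). SETBP1 (0.0522) lost the call under quantile normalization, and 6 of the 11 calls ended in at least 1 of the other 10 settings (highest adjusted p = 0.472).

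Growth factor genes that changed were lower with CEE+MPA. In the activin, TGF-beta and BMP list 5 of 29 fell and 0 rose (median -0.33). The ligand INHBA, the subunit of activin A, read 415, 297, 328 and 171 on the controls and 91.3, 28.6, 82.2 and 59.0 on the CEE+MPA arrays (-1.99 ± 0.32, adjusted p = 0.00442). Its secreted antagonist FST, follistatin, fell too, from 416, 573, 438 and 386 to 179, 213, 235 and 149 (-1.16 ± 0.18, adjusted p = 0.0042). Both showed no overlap. BMP4, a ligand of mesenchymal cells (-1.08 ± 0.29, adjusted p = 0.0375), SMAD3, the mediator of activin and TGF-beta (-0.88 ± 0.18, adjusted p = 0.0124), and ID3, a target of BMP signals (-0.90 ± 0.25, adjusted p = 0.0466), were the other members that fell. SMAD3 had 4 treated animals between 398 and 414 where the controls were at 739, 889, 687 and 763. In the IGF list 2 of 17 fell and 0 rose (median -0.38). IGFBP4, a binding protein that holds IGFs back, read 3895, 3997, 4602 and 3902 against 2194, 2119, 1914 and 1417 (-1.11 ± 0.23, adjusted p = 0.014), with no overlap. IGFBP3, the main IGF carrier in serum, read 2722, 4633, 4609 and 2019 against 895, 732, 1028 and 2247 (-1.55 ± 0.44, adjusted p = 0.046), where CEE+MPA array 4 lay above control 4. The ligand IGF1 did not pass (-0.56 ± 0.32, adjusted p = 0.299). FGF9, a fibroblast growth factor, was the member of its family that fell (-1.53 ± 0.32, adjusted p = 0.0155), 1 of 13 with 0 higher (median -0.49). Neither direction held a call among 17 EGF family ligands and ERBB receptors (median -0.26), of which HBEGF had the smallest p (-0.67 ± 0.24, adjusted p = 0.0957). IGFBP4, FST and INHBA still passed with any 1 array left out. SMAD3 lost its call without control 2 (adjusted p = 0.0525) and FGF9 without control 2 or CEE+MPA 3 (highest adjusted p = 0.065). IGFBP3, BMP4 and ID3 each lost the call without control 1, 2 or 3 or CEE+MPA 1, 2 or 3, 1 of them without control 4 or CEE+MPA 4 (highest adjusted p = 0.146). BMP4 (0.0534) lost the call under quantile normalization and IGFBP3 (0.0525) and ID3 (0.0597) with median centring, and 3 of the 8 calls ended in at least 1 of the other 10 settings (highest adjusted p = 0.15).

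Contractile genes, shared by vascular smooth muscle and myoepithelium, had the largest share of members lower of all 47 lists. Of 20 tested, 11 fell and 0 rose (median -0.93; 19 of 20 had a negative change). MYH11, the smooth muscle myosin heavy chain, read 4479, 4917, 5331 and 2212 on the controls and 1323, 1303, 953 and 728 on the CEE+MPA arrays (-1.92 ± 0.28, adjusted p = 0.00365). ACTG2, the enteric smooth muscle actin, read 2501, 2271, 2027 and 2730.2 against 1011, 1164, 487 and 176 (-2.03 ± 0.44, adjusted p = 0.0167). KCNMB1, a subunit of the calcium-activated potassium channel of smooth muscle, read 643, 641, 555 and 604 against 298, 268, 206 and 149.8 (-1.39 ± 0.22, adjusted p = 0.0043). In each of them the highest treated animal was under the lowest control. SYNPO2, an actin-binding protein gene (-1.24 ± 0.18, adjusted p = 0.00304), JPH2, which couples membranes in muscle (-1.06 ± 0.17, adjusted p = 0.00435), and CALD1, caldesmon (-0.70 ± 0.14, adjusted p = 0.014), fell as well. In bulk tissue, fewer cells of a type and less RNA per cell cannot be told apart, for this and for every list below. The summed signal of the list was 38859 to 50656 on the control arrays and 24462 to 32235 on the CEE+MPA arrays, so the 2 groups did not overlap. The count of lower members was 4 without control 2 and 6 without CEE+MPA 3.

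Basal epithelial genes gave 6 lower and 0 higher of 17 (median -0.64). ACTG2 and CNN1, calponin (-1.28 ± 0.29, adjusted p = 0.0221), belong to both lists. TRIM29, a gene of basal epithelial cells outside the contractile programme, read 1124, 1434, 914 and 742 against 483, 393, 207 and 289 (-1.60 ± 0.33, adjusted p = 0.0143), and KRT16, a stress keratin, 967, 1246, 921 and 716 against 480.3, 588, 269 and 178 (-1.42 ± 0.36, adjusted p = 0.0308). Neither gene overlapped between groups. CAV1, caveolin 1, also a gene of fat and endothelium, fell by 0.64 on the log2 scale (adjusted p = 0.0308), and DLL1 is given above. The basal keratins KRT5 and KRT14 are not named on this array. The number of basal genes lower was 0 without control 2 or CEE+MPA 3 and 2 without control 1 or 3. SYNPO2, MYH11, KCNMB1 and JPH2 still passed with any 1 array left out. CALD1 lost its call without control 2 (adjusted p = 0.0582), ACTG2 without control 2 or CEE+MPA 3 (highest adjusted p = 0.0547) and TRIM29 without control 2 or CEE+MPA 3 (highest adjusted p = 0.0615). CNN1, KRT16 and CAV1 each lost the call without control 1, 2 or 3 or CEE+MPA 3, 1 of them without CEE+MPA 2 or 4 (highest adjusted p = 0.106). Of the 10 calls, 2 ended in at least 1 of the other 10 settings (highest adjusted p = 0.0551).

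**Figure D4:**
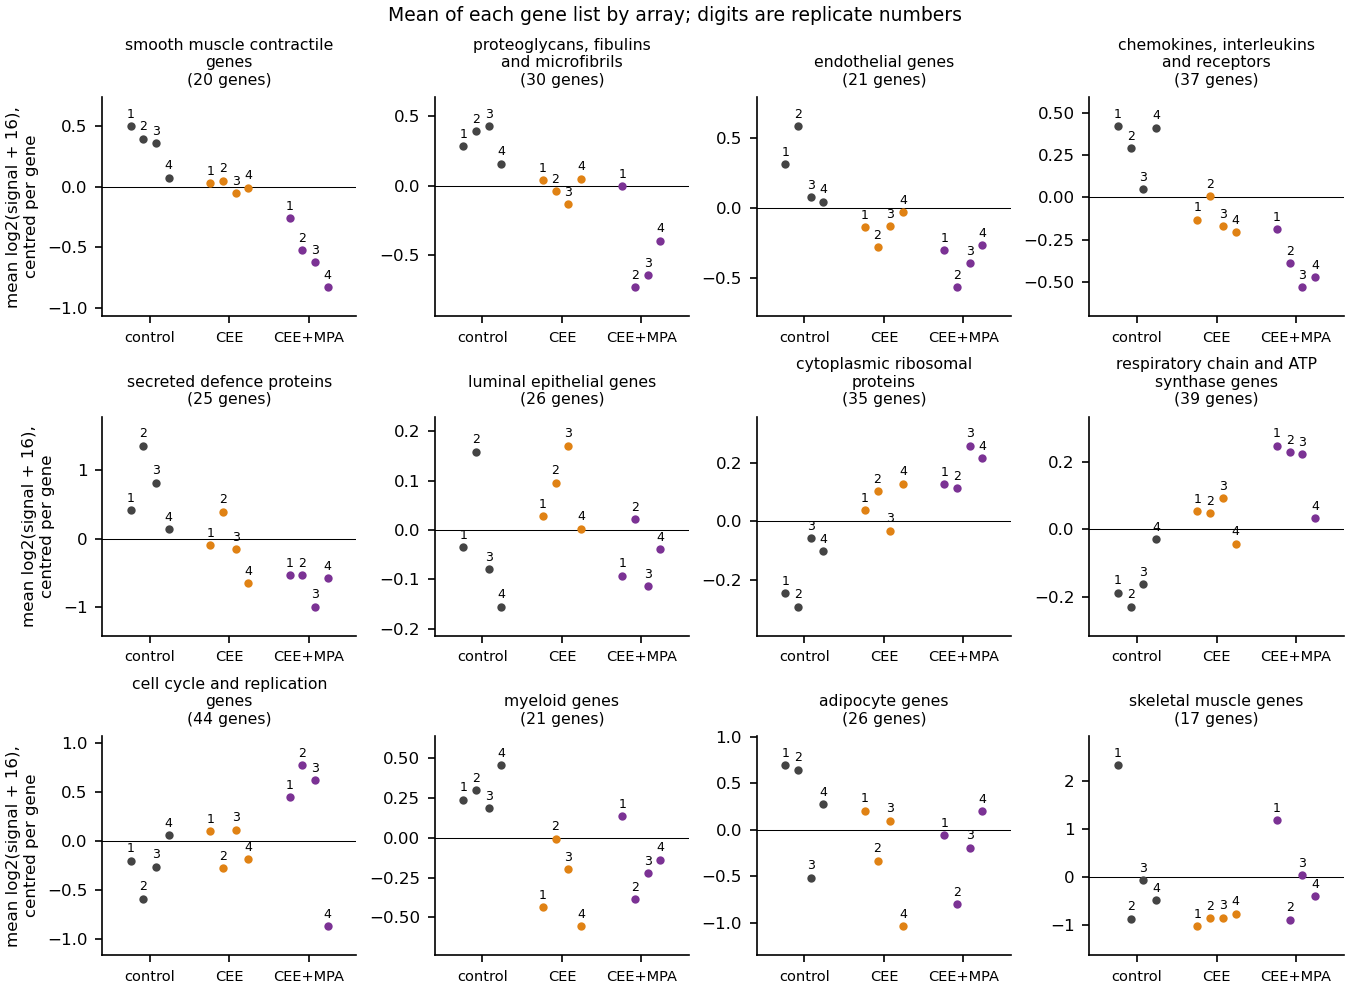
Mean of 12 gene lists on each control, CEE and CEE+MPA array (y axis, log2(signal + 16) minus the 16-array mean of the gene, averaged over the list), with the replicate number beside each point. Smooth muscle, proteoglycan, endothelial, chemokine and secreted defence means are lower on all 4 CEE+MPA arrays than on all 4 controls, ribosomal and respiratory means are higher, and the cell cycle mean is low on CEE+MPA array 4 alone of its group.

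Genes of the extracellular matrix were lower in several classes. In the list of proteoglycans, fibulins and microfibril genes 11 of 30 fell and 0 rose (median -0.63), with a summed signal of 84746 to 104122 on the control arrays and 57088 to 81577 on the CEE+MPA arrays. FBLN1, the gene of fibulin 1, a glycoprotein of basement membranes and elastic fibres, read 2496, 2935, 3758 and 1733 on the controls, 1281, 851, 1127 and 814 with CEE alone and 623, 331, 446 and 431 with CEE+MPA (-2.52 ± 0.25, adjusted p = 0.000342). OGN, osteoglycin of the small leucine-rich proteoglycans, read 2512, 2832, 2122 and 1597 against 809, 396, 573 and 799 (-1.81 ± 0.28, adjusted p = 0.00404). DPT, dermatopontin, which aids collagen fibril formation, read 2654, 2427, 4398 and 3084 against 1253, 479, 632 and 984 (-1.94 ± 0.30, adjusted p = 0.0042). All treated animals were below all controls, and CEE+MPA array 1 was the highest of the 4 treated in each. CCDC80 (-1.20 ± 0.20, adjusted p = 0.00492) and SRPX (-1.11 ± 0.20, adjusted p = 0.00824), both secreted by fibroblasts, fell alike, and so did the fibulin FBLN5 (-1.42), the thrombospondin THBS2 (-1.90) and the proteoglycan LUM (-0.84) among the other 6 members called. Collagens and their enzymes gave 6 lower and 0 higher of 29 (median -0.42). P4HA1 (1469.8, 1838, 1333 and 995 against 635, 562, 570.2 and 536; -1.24 ± 0.18, adjusted p = 0.00336) and P4HA2 (-0.97 ± 0.17, adjusted p = 0.00721), the catalytic subunits of prolyl 4-hydroxylase that stabilizes the collagen helix, had smaller p-values than any collagen chain. The chains COL16A1 (-0.94 ± 0.21, adjusted p = 0.0186), COL12A1 (-1.08 ± 0.26, adjusted p = 0.0258) and COL6A1 (-0.52 ± 0.14, adjusted p = 0.0409) fell. Counts lower with 1 array left out were 2 without control 2 or CEE+MPA 3 and 3 without control 1 or 3 or CEE+MPA 2 for collagens and 6 without control 2 and 7 without CEE+MPA 2 or 3 for proteoglycans. FBLN1, OGN, DPT, CCDC80, SRPX, P4HA1 and P4HA2 still passed with any 1 array left out. COL16A1 lost its call without control 2 or CEE+MPA 3 (highest adjusted p = 0.0719). COL12A1 lost its call without control 1, 2 or 3 or CEE+MPA 2, 3 or 4 (highest adjusted p = 0.085), and COL6A1 lost its call without control 1, 2 or 3 or CEE+MPA 2, 3 or 4 (highest adjusted p = 0.132). COL6A1 (0.0706) lost the call with median centring, and 2 of the 10 calls ended in at least 1 of the other 10 settings (highest adjusted p = 0.082).

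Cell-matrix adhesion and matrix turnover genes followed with smaller counts. Of 29 integrin, laminin and nidogen genes 4 fell and 0 rose (median -0.42), and of 29 metalloproteinases, related proteases and inhibitors 4 fell and 0 rose (median -0.39). HTRA1, a secreted serine protease that acts on matrix and TGF-beta ligands, had the smallest p of any gene. Its signals were 6077, 5480.0, 4553 and 4147 on the controls, 2459.5, 2660.1, 2874 and 2077 with CEE alone and 1827, 1743, 1882 and 1519.9 with CEE+MPA (-1.52 ± 0.15, adjusted p = 0.000342), and the 4 treated animals lay within a narrow range below all others. LAMA4, a laminin chain of vessel and fat basement membranes, read 2065, 1910.2, 2155 and 1500.1 against 727, 883, 776 and 657 (-1.30 ± 0.25, adjusted p = 0.00995). The inhibitors TIMP2 (-0.77 ± 0.21, adjusted p = 0.0409) and TIMP3 (-1.02 ± 0.24, adjusted p = 0.025) fell beside the protease ADAMTS1, given above. ITGA11, a collagen receptor of fibroblasts (-0.92 ± 0.23, adjusted p = 0.0287), LAMB2, a laminin chain (-0.63 ± 0.17, adjusted p = 0.0384), and SDC2, a heparan sulphate proteoglycan (-0.97 ± 0.27, adjusted p = 0.0442), made up the remaining calls. LAMA4 and HTRA1 still passed with any 1 array left out. ITGA11, LAMB2, SDC2, TIMP3, TIMP2 and ADAMTS1 each lost the call without control 1 or 2 or CEE+MPA 2 or 3, 5 of them without control 3, 4 of them without CEE+MPA 1 and 3 of them without control 4 or CEE+MPA 4 (highest adjusted p = 0.136). SDC2 (0.0568), TIMP2 (0.0581) and ADAMTS1 (0.0534) lost the call under quantile normalization and LAMB2 (0.0513), SDC2 (0.0531), TIMP2 (0.0505) and ADAMTS1 (0.0526) with median centring, and 5 of the 8 calls ended in at least 1 of the other 10 settings (highest adjusted p = 0.142).

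Secreted defence proteins of the epithelium were lower as well. Of 25 tested 8 fell and 0 rose (median -1.26). SPP1, osteopontin, a secreted phosphoprotein of epithelia and macrophages, read 10716, 12741, 7211 and 7964 on the controls, 461, 2029, 897 and 146 with CEE alone and 585, 206, 125 and 4422 with CEE+MPA (-4.13 ± 1.06, adjusted p = 0.0338). CEE+MPA array 4 stood far above the other 3 treated animals, still under all controls. CHI3L2, a chitinase-like protein gene, read 1373, 4190.3, 3185 and 1858 against 479, 612, 379 and 359 (-2.39 ± 0.34, adjusted p = 0.00304). WFDC2, a protease inhibitor of gland epithelia also called HE4, read 4713, 6498, 4203 and 1677 against 636, 687, 613 and 815 (-2.46 ± 0.48, adjusted p = 0.0107). BPIFB1, a bacteria-binding protein of mucosal secretions, read 959, 508, 214 and 221 against 42.6, 19.5, 46.2 and 28.6 (-3.06 ± 0.59, adjusted p = 0.0107). No treated animal reached the lowest control in these genes, which the rule for the largest changes required. SLPI, an inhibitor of leukocyte elastase (-1.66 ± 0.27, adjusted p = 0.00463), and SERPINA3, antichymotrypsin (15536, 18471, 13991 and 7064 against 4446, 3998, 1968 and 6666; -1.73 ± 0.36, adjusted p = 0.0153), fell. ZG16B, a secreted lectin-like protein gene outside the list, read 1122, 6244, 10041 and 2586 against 916, 539, 619 and 739.7 (-2.39 ± 0.66, adjusted p = 0.0434), with a wide spread among controls. The list's count of lower genes was 4 without control 2 and 5 without control 3 or CEE+MPA 1, 2 or 3. CHI3L2, SLPI, BPIFB1 and WFDC2 still passed with any 1 array left out. SERPINA3 lost its call without control 2 (adjusted p = 0.0651). SPP1 lost its call without control 1, 2 or 3 or CEE+MPA 1, 2 or 3 (highest adjusted p = 0.102), and ZG16B lost its call without control 2 or 3 or CEE+MPA 1, 2, 3 or 4 (highest adjusted p = 0.141). ZG16B (0.0517) lost the call under quantile normalization, and 3 of the 7 calls ended in at least 1 of the other 10 settings (highest adjusted p = 0.12).

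Chemokine and cytokine genes that changed were also lower: 9 of 37 fell and 0 rose (median -0.64, with 33 negative changes), and the list's summed signal was 23454 to 25873 on the control arrays and 12510.1 to 18068 on the CEE+MPA arrays. The ligand CCL2, which draws monocytes, read 1289, 708, 436 and 948 on the controls and 178, 328, 134 and 151 on the CEE+MPA arrays (-1.98 ± 0.32, adjusted p = 0.00442). IL33, an alarmin of stromal and endothelial cells, read 165, 103, 173 and 142 against 52.9, 75.7, 65.3 and 65.4 (-0.98 ± 0.21, adjusted p = 0.0153), and on the CEE arrays 117, 156, 108 and 219. IL34, a ligand of the CSF1 receptor, read 520.3, 589.9, 234 and 343 against 140.0, 181, 168 and 184 (-1.17 ± 0.27, adjusted p = 0.0242). Treated animals were below the controls in all of them. The decoy receptor ACKR1, carried by venules and red cells, read 2009.9, 2673, 985 and 1446 against 789, 552, 599 and 449 (-1.48 ± 0.33, adjusted p = 0.0188). The ligand CCL11 (-1.10, adjusted p = 0.0309) and the receptors OSMR (-1.46, adjusted p = 0.0293), IL6R (-0.90, adjusted p = 0.0336) and ACKR3, a scavenger of CXCL12 (-1.36, adjusted p = 0.0355), complete the list's calls, with CXCL12 above. The count was 3 without control 2 or CEE+MPA 2 or 3 and 4 without control 1.

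Markers of immune cells themselves held few calls. In the myeloid list 1 of 21 fell and 0 rose (median -0.58), the member being MS4A7, a macrophage membrane protein (671, 692, 706 and 941 against 508, 400.4, 354 and 436; -0.80 ± 0.19, adjusted p = 0.0243). The summed signal was 23612 to 31014 on the control arrays and 20197 to 27338 on the CEE+MPA arrays, so the 2 groups overlapped, and their part in the chemokine result was not tested. Lymphoid genes gave 0 higher and 0 lower of 14 (median -0.30), with GZMK, a T cell granzyme, at the smallest p (0.62 ± 0.19, adjusted p = 0.0651). Their changes were positive in 5 members and negative in 9. Their summed signal, 20419 to 26906 on the control arrays and 25368 to 37001 on the CEE+MPA arrays, overlapped but reached higher with treatment, unlike the median. Mast cell genes gave 0 and 0 of 4 (-0.48), led by KIT (-0.86 ± 0.33, adjusted p = 0.123). The summed signal of these 4 genes was 4778 to 6036 on the control arrays and 1902 to 4392 on the CEE+MPA arrays, without overlap. Among 29 interferon-stimulated genes 1 rose and 3 fell (median -0.29). ISG20, an exonuclease, read 1127, 884, 1691 and 2045 against 2709, 2907, 2877 and 3214 (1.09 ± 0.26, adjusted p = 0.0249), while SAMD9L (-0.63 ± 0.17, adjusted p = 0.0393), BST2, tetherin (-0.50 ± 0.14, adjusted p = 0.0421), and IFI44 (-0.78 ± 0.22, adjusted p = 0.0489), antiviral genes, fell. CXCL12, CCL2 and IL33 still passed with any 1 array left out. ACKR1, IL34, MS4A7, ISG20, SAMD9L, BST2 and IFI44 each lost the call without control 2 or CEE+MPA 2 or 3, 6 of them without control 1, 3 of them without control 3 or 4 or CEE+MPA 1 and 2 of them without CEE+MPA 4 (highest adjusted p = 0.125). SAMD9L (0.0534) and IFI44 (0.0701) lost the call under quantile normalization and SAMD9L (0.0534), BST2 (0.0655) and IFI44 (0.0662) with median centring, and 6 of the 10 calls ended in at least 1 of the other 10 settings (highest adjusted p = 0.127).

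Vascular, fat and nerve genes had smaller sets of calls, each of them lower. Endothelial genes gave 4 lower and 0 higher of 21 (median -0.55), and every tested member had a negative change. Their summed signal was 13673 to 20755 on the control arrays and 9237 to 10779 on the CEE+MPA arrays. Besides ACKR1 these were MMRN1, multimerin 1 (-1.42 ± 0.35, adjusted p = 0.0308), RAMP2, a partner of the adrenomedullin receptor (-0.73 ± 0.19, adjusted p = 0.0349), and ERG, a transcription factor of endothelial cells (-0.48 ± 0.13, adjusted p = 0.0394). Without 1 array the count was 0 without control 1 or 2 or CEE+MPA 2 or 3. Adipocyte genes gave 3 lower and 0 higher of 26 (median -0.49) with a summed signal of 46483 to 79117 on the control arrays and 42942 to 68575 on the CEE+MPA arrays, which overlapped. The median was -0.28 without control 1, -0.32 without CEE+MPA 2 and -0.87 without control 3. It was 0.15 in the set of lower spike-in signal and -1.28 in the higher. CFD, the complement factor adipsin, read 7067, 12571, 7150.4 and 6522 against 2226, 3461, 4009 and 2604 (-1.42 ± 0.36, adjusted p = 0.0318), and RETN, resistin, 254, 271, 261 and 145 against 125, 105, 84.3 and 78.7 (-1.11 ± 0.22, adjusted p = 0.0119). In the Schwann cell and nerve list 4 of 16 fell and 0 rose (median -0.59). MAL (144, 155, 131 and 152 against 81.0, 68.5, 52.1 and 63.9; -0.98 ± 0.16, adjusted p = 0.00455) and MBP (-1.16 ± 0.24, adjusted p = 0.014) are myelin genes, PMP22 (-0.81 ± 0.20, adjusted p = 0.0301) is another that fibroblasts also express, and L1CAM (-1.40 ± 0.32, adjusted p = 0.0229) is a neural adhesion molecule. Changes in the nerve list were positive in 6 members and negative in 10, from -1.40 to 3.45. All 4 treated animals lay above all controls in 4 members and below in 4, where 9.04% and 10.5% of all genes did. With the filter at the 75th percentile of signal 1 member rose, 1 fell and the median was 0.17. The list's summed signal, 19583 to 21770.2 on the control arrays and 20232 to 22946 on the CEE+MPA arrays, overlapped between the groups. CALML5, a calmodulin-like protein of skin, read 1627, 1669, 777 and 2338 against 388, 139.6, 708 and 558 (-1.91 ± 0.53, adjusted p = 0.0453) and was the call among 8 keratinocyte genes (1 lower, 0 higher, median -0.084). MAL still passed with any 1 array left out. RETN lost its call without control 2 (adjusted p = 0.051) and MBP without control 2 (adjusted p = 0.0568). MMRN1, RAMP2, ERG, CFD, L1CAM, PMP22 and CALML5 each lost the call without control 1 or 2 or CEE+MPA 2 or 3, 4 of them without CEE+MPA 1, 3 of them without control 3, 2 of them without control 4 and 1 of them without CEE+MPA 4 (highest adjusted p = 0.141). ERG (0.0777) and CALML5 (0.0559) lost the call under quantile normalization and ERG (0.0662) and CALML5 (0.0513) with median centring, and 7 of the 10 calls ended in at least 1 of the other 10 settings (highest adjusted p = 0.143).

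Solute carrier genes held few calls, while 16.7% of calcium and water handling genes were lower, where 4.96% of all genes were. That share rests on 3 genes. Of 38 solute carriers 1 fell and 0 rose (median -0.016), the member being the noradrenaline transporter SLC6A2 (-1.26 ± 0.31, adjusted p = 0.0294). Of 18 calcium and water handling genes 1 rose, RYR2 above, and 3 fell (median -0.33). PTHLH, the parathyroid hormone-related protein that moves calcium during lactation, read 242, 171, 184 and 180.1 against 70.7, 81.1, 50.2 and 125 (-1.15 ± 0.29, adjusted p = 0.0305), ITPR1, a calcium release channel, changed by -1.17 ± 0.30 (adjusted p = 0.0328), and AQP5, a water channel of secretory glands, read 473, 952, 743 and 270.0 against 85.8, 201, 149 and 272 (-1.65 ± 0.42, adjusted p = 0.0338). PTHLH and ITPR1 did not overlap, while AQP5 on CEE+MPA array 4 stood just above control 4. SLC6A2, PTHLH, ITPR1 and AQP5 each lost the call without control 2 or 3 or CEE+MPA 1, 2 or 3, 3 of them without control 1 and 1 of them without control 4 (highest adjusted p = 0.12). Of the 4 calls, 4 ended in at least 1 of the other 10 settings (highest adjusted p = 0.129).

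Luminal epithelial genes held 2 rises and no fall. Of 26 tested, 2 rose and 0 fell (median 0.21), and both rises were lost under quantile normalization. KRT19, a luminal keratin, read 13414, 13527, 15852 and 14154 on the controls and 19492, 21034, 24356 and 23119.5 on the CEE+MPA arrays (0.63 ± 0.17, adjusted p = 0.0409). SPDEF, a transcription factor of luminal and secretory cells, read 433, 613, 536 and 399 against 709, 851, 949 and 1011 (0.82 ± 0.23, adjusted p = 0.0495). Treated animals were above the controls in both. KRT18 had all treated animals lower without passing (-0.61 ± 0.23, adjusted p = 0.119), and GATA3 (0.23 ± 0.17, adjusted p = 0.464) and FOXA1 (-0.87 ± 0.43, adjusted p = 0.233), the transcription factors of luminal identity, overlapped. Androgen-regulated and apocrine genes gave 1 higher and 1 lower of 13 (median 0.63), SPDEF and AQP5. Their changes were positive in 7 members and negative in 6, from -2.24 to 2.04. The median was 0.36 without CEE+MPA 2 and 0.27 with the filter at the 75th percentile of signal. Their summed signal, 31169.5 to 37376 on the control arrays and 26284 to 35388 on the CEE+MPA arrays, overlapped. Steroid-metabolizing enzymes gave 0 and 0 of 10 (0.073). CYP1B1, which hydroxylates estrogens, had the smallest p (-0.83 ± 0.26, adjusted p = 0.0626). HSD17B2, which inactivates estradiol, had all treated animals above the controls (254, 217, 176 and 202 against 391, 334, 316 and 589) and did not pass (0.86 ± 0.35, adjusted p = 0.145). None of 29 tight junction and adhesion genes passed (median 0.14), CDH13 having the smallest p (-0.72 ± 0.23, adjusted p = 0.0699). KRT19 lost its call without any 1 of the 8 arrays (highest adjusted p = 0.12), and SPDEF lost its call without any 1 of the 8 arrays (highest adjusted p = 0.121). KRT19 (0.284) and SPDEF (0.0552) lost the call under quantile normalization, and 2 of the 2 calls ended in at least 1 of the other 10 settings (highest adjusted p = 0.11).

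Genes of protein synthesis held the largest shares of genes that rose. Cytoplasmic ribosomal proteins gave 7 higher and 1 lower of 35 (median 0.44), but 0 higher, 1 lower and a median of 0.081 under quantile normalization, which gives all arrays the same distribution of signals. RPL29 of the large subunit read 11622, 10949, 15416 and 15334 on the controls and 20187, 18919.7, 20703 and 20644 on the CEE+MPA arrays (0.61 ± 0.15, adjusted p = 0.031), and RPS15 of the small subunit 14125, 13059.7, 16739.7 and 15722 against 20846, 20738, 22371 and 22456 (0.54 ± 0.15, adjusted p = 0.0413). Treated animals lay above all controls in both. RPL23 (0.55 ± 0.14, adjusted p = 0.0338), RPL10A (0.58 ± 0.15, adjusted p = 0.0341) and RPL22L1, a paralog of RPL22 (1.02 ± 0.28, adjusted p = 0.04), rose too, while the brightest probe set named RPL24 fell (-1.10 ± 0.31, adjusted p = 0.0457). Ribosomal protein genes have many near-identical pseudogene copies, and their probe sets may share targets. Nucleolar and ribosome assembly genes gave 5 higher and 0 lower of 27 (median 0.45). DKC1, dyskerin of the pseudouridylation complex, read 1016, 975, 1162 and 1095 against 1748, 2041, 1641 and 1560.5 (0.71 ± 0.15, adjusted p = 0.0145). NPM1, nucleophosmin, read 8855, 8140.2, 11251 and 10425 against 14872, 15379.8, 16290.1 and 14699 (0.67 ± 0.15, adjusted p = 0.0184), and FBL, the rRNA methylase fibrillarin, 6733, 6765, 7632 and 7671 against 10443, 10855, 11528 and 9915 (0.57 ± 0.13, adjusted p = 0.0199). The groups were separate in all of them, and UTP4 (0.56 ± 0.14, adjusted p = 0.0341) and WDR43 (0.54 ± 0.15, adjusted p = 0.0386) of the small subunit processome rose as well. With 1 array left out the higher counts were 0 without control 2 or CEE+MPA 3 or 4, 1 without control 1 or CEE+MPA 2, 2 without CEE+MPA 1 and 4 without control 3 for ribosomal proteins and 0 without control 2, 1 without control 1 or CEE+MPA 3 and 2 without CEE+MPA 2 for the nucleolar list. DKC1 lost its call without control 2 (adjusted p = 0.0595). RPL29, RPL23, RPL10A, RPL22L1, RPS15, RPL24, NPM1, FBL, UTP4 and WDR43 each lost the call without control 2 or CEE+MPA 3, 9 of them without control 1, 8 of them without CEE+MPA 2, 6 of them without CEE+MPA 4, 5 of them without CEE+MPA 1, 4 of them without control 4 and 3 of them without control 3 (highest adjusted p = 0.139). RPL29 (0.222), RPL23 (0.326), RPL10A (0.2), RPL22L1 (0.0833), RPS15 (0.358) and NPM1 (0.0607) lost the call under quantile normalization and RPL24 (0.0577) with median centring, and 8 of the 11 calls ended in at least 1 of the other 10 settings (highest adjusted p = 0.174).

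Lists of energy and amino acid supply also held rises and no falls. Of 39 subunits of the respiratory chain and ATP synthase 4 rose and 0 fell (median 0.35; 37 positive changes). Of the calls, ATP5F1C (3379, 3159, 3519 and 4595 against 6289, 5423, 5919 and 5800.1; 0.69 ± 0.14, adjusted p = 0.0126), ATP5PD (0.53 ± 0.13, adjusted p = 0.0332) and ATP5MC3 (0.54 ± 0.15, adjusted p = 0.0457) belong to ATP synthase and NDUFA4 (0.63 ± 0.15, adjusted p = 0.0224) to the respiratory chain. All treated animals exceeded all controls in these. Aminoacyl-tRNA synthetases and amino acid genes gave 3 higher and 0 lower of 18 (median 0.28). ATF4, the transcription factor of the amino acid response, read 6977, 6152, 6749.6 and 7346 against 9889.5, 10677, 10299 and 9899 (0.58 ± 0.12, adjusted p = 0.014), KARS1, lysyl-tRNA synthetase, changed by 0.57 ± 0.13 (adjusted p = 0.0251), and SHMT2, a mitochondrial enzyme of serine use, by 0.76 ± 0.19 (adjusted p = 0.0307). MYC, the transcription factor known to drive ribosome production, read 1133, 488, 667 and 805 against 1282, 1891, 1717 and 1200.0 (1.0 ± 0.27, adjusted p = 0.0422), with every treated animal above every control. It was the 1 call of 22 immediate early and stress genes, with 0 lower and a median of -0.79. The count of respiratory genes that rose was 0 without control 2, 1 without control 1 or CEE+MPA 3, 2 without control 3 or CEE+MPA 1 or 2 and 7 without CEE+MPA 4. Neither 41 genes of the endoplasmic reticulum and secretory route (median 0.086; smallest p SSR3, 0.64 ± 0.19, adjusted p = 0.058) nor 29 chaperone and heat shock genes (0.033; CCT5, 0.62 ± 0.20, adjusted p = 0.0726) held a call. ATP5F1C lost its call without control 2 (adjusted p = 0.0539) and ATF4 without control 2 (adjusted p = 0.0601). NDUFA4, ATP5PD, ATP5MC3, KARS1, SHMT2 and MYC each lost the call without control 2 or CEE+MPA 3, 5 of them without control 1 or CEE+MPA 1 or 2, 4 of them without control 3 and 1 of them without control 4 (highest adjusted p = 0.147). ATP5PD (0.0764), ATP5MC3 (0.1), KARS1 (0.0701) and MYC (0.0546) lost the call under quantile normalization, and 7 of the 8 calls ended in at least 1 of the other 10 settings (highest adjusted p = 0.143).

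Cell cycle genes were high in 3 of the 4 treated animals and low in the fourth. Of 44 tested 1 rose and 1 fell, although the median log2 fold change was 0.55 and 38 of 44 were positive. List means were -0.20, -0.59, -0.26 and 0.058 on controls 1 to 4 and 0.45, 0.77, 0.62 and -0.87 on CEE+MPA arrays 1 to 4. MKI67, the proliferation marker Ki-67, read 120.3, 86.7, 110.0 and 153 on the controls and 235, 369, 365 and 63.1 on the CEE+MPA arrays (0.82 ± 0.43, adjusted p = 0.257). TOP2A, topoisomerase II of dividing cells, read 471, 163, 253 and 411 against 1065, 1769, 1932 and 85.8 (1.32 ± 0.76, adjusted p = 0.31), and CCNB1, the mitotic cyclin B1, 219, 131, 295 and 340.0 against 1050.2, 1135, 1263 and 111 (1.43 ± 0.63, adjusted p = 0.18); both genes were chosen after their values were seen. On CEE+MPA arrays 1, 2 and 3 all of these lay above all controls, and on array 4 below. In 30 of the 44 genes arrays 1, 2 and 3 stood above all controls, and in 29 array 4 was the lowest of the 8. The shares of all genes with these patterns were not counted. All 4 treated arrays lay above all controls in 0 of the 44 genes and below in 1, where 9.04% and 10.5% of all genes did. Without CEE+MPA 4 the list had 21 genes higher and 0 lower, and MKI67 had an adjusted p of 0.0265. In that setting 630 probe sets of the whole array were higher and 1120 lower. Array 4 was singled out because it was lowest for this same list, so more calls without it were built into the choice. The 21 genes are therefore no separate evidence that these genes rise with CEE+MPA. Array 4 belongs to the set of lower spike-in signal, and there the list's median was -0.15, against 1.21 in the other set. Its part in the result was not tested. The member that rose was GMNN, geminin, a brake on DNA re-replication (186, 159.5, 253 and 298 against 483, 455, 498 and 289; 0.91 ± 0.24, adjusted p = 0.0357), where array 4 again was lowest of the treated and below control 4. The member that fell, DLGAP5, a spindle gene, read 2099, 2312, 1697 and 1978 against 1658, 1272, 986 and 932 (-0.76 ± 0.19, adjusted p = 0.0338), opposite in sign to the list's median. CCND1, cyclin D1, did not pass (0.37 ± 0.35, adjusted p = 0.561). GMNN lost its call without control 1, 2 or 3 or CEE+MPA 1, 2 or 3 (highest adjusted p = 0.127), and DLGAP5 lost its call without control 1 or 2 or CEE+MPA 2, 3 or 4 (highest adjusted p = 0.113). Of the 2 calls, 2 ended in at least 1 of the other 10 settings (highest adjusted p = 0.115).

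**Figure D5:**
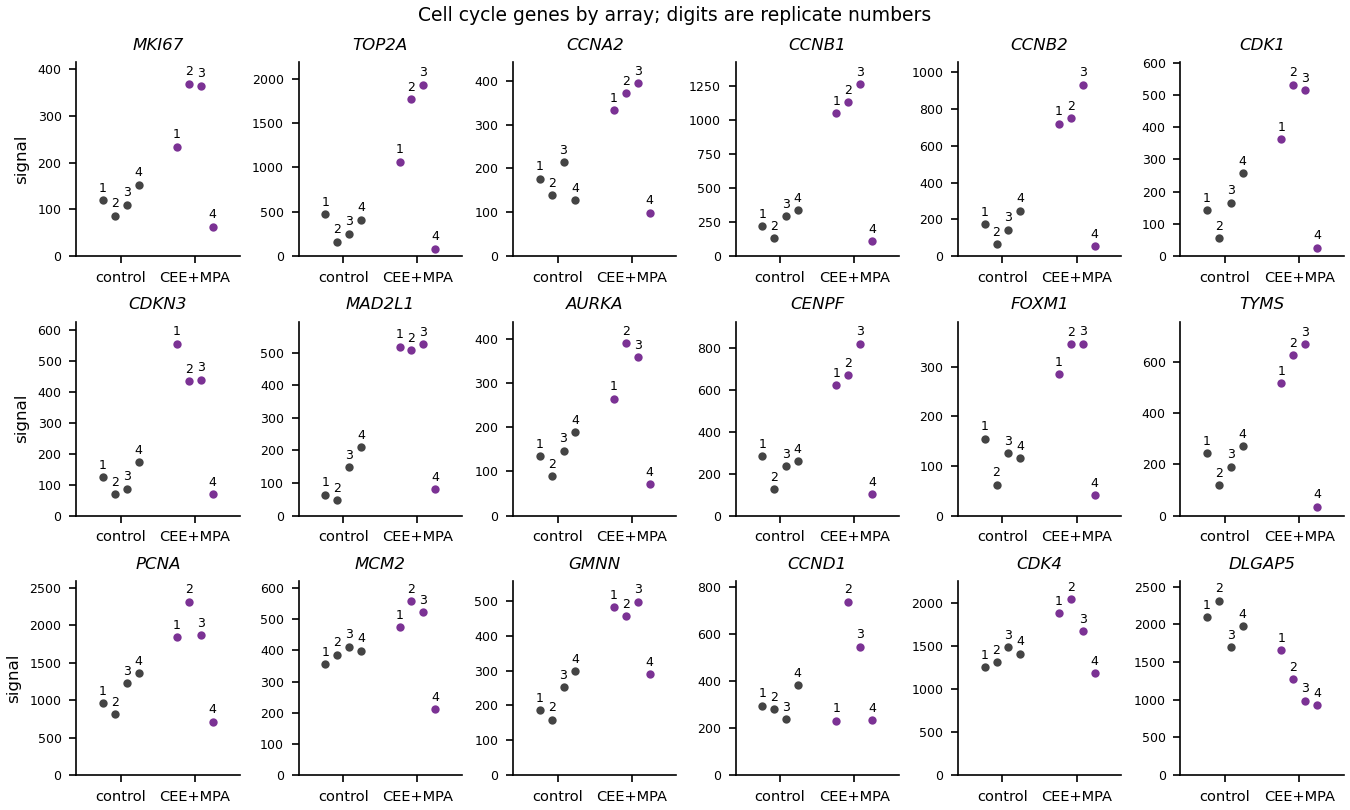
Signal (y axis) of 18 cell cycle genes on the 4 control and 4 CEE+MPA arrays, with replicate numbers beside the points. In most panels CEE+MPA arrays 1 to 3 lie above the controls and array 4 at or below the lowest control, as MKI67 shows with 63.1 on array 4; DLGAP5 falls on all 4.

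The CEE arrays give the levels with estrogen alone. The 2 comparisons share the 4 controls, so their values are given side by side only. CEE against control gave 12 probe sets higher and 9 lower, with 3574 at an unadjusted p under 0.05. STAT5A had log2 fold changes of 1.56 with CEE and 1.71 with CEE+MPA, RSPO1 2.38 and 2.38, SPP1 -3.94 and -4.13 and FST -1.06 and -1.16. Of the called genes, 283 of the 286 that rose and 514 of the 518 that fell had the same sign with CEE, which the shared controls favour. Some genes, picked as examples, were near the controls with CEE: IL33 had 0.014 and -0.98, TRIM29 -0.20 and -1.60, RERG -0.27 and -1.31, MBP -0.21 and -1.16, PTHLH -0.27 and -1.15 and AQP5 0.13 and -1.65. Tested directly, CEE+MPA against CEE, none of these differed past the threshold, IL33 by -1.0 ± 0.21 (adjusted p = 0.181), TRIM29 by -1.39 ± 0.33 (0.268) and STAT5A by 0.15 ± 0.33 (0.944).

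That direct test called 6 probe sets, 0.0209% of those tested, all lower with the progestin (2216 at an unadjusted p under 0.05). GREB1 differed by -2.29 ± 0.24 (adjusted p = 0.000645). IGFBP1, a binding protein of insulin-like growth factors, read 1019 ± 885 with CEE, 15.9 ± 10.1 with CEE+MPA and 57.8 ± 36.9 in controls (SD, n = 4 each), and the first 2 groups differed by -4.76 ± 0.43 (0.000212). TMPRSS3, a membrane serine protease gene, read 2247 ± 1319, 19.4 ± 15.5 and 25.7 ± 12.1 and differed by -5.82 ± 0.55 (adjusted p = 0.000212), on 1 of the 4 tested probe sets of this gene. The brightest of the 4 differed by -0.76 ± 0.56 (0.787). BCAS1, first described as amplified in breast cancer (-1.86 ± 0.22, 0.00269), and ERICH3, a gene of ciliated cells (-2.68 ± 0.42, 0.0429, again on 1 of 4 probe sets, the brightest differing by 0.091 ± 0.25), were the other named genes, beside 1 probe set without a gene name. Against the untreated controls the same probe sets had log2 fold changes of -1.12 for IGFBP1 (adjusted p = 0.122), -0.30 for TMPRSS3 (0.792), -0.51 for BCAS1 (0.179) and 0.92 for ERICH3 (0.19), and GREB1 was the gene that passed. The CEE+MPA means of IGFBP1, TMPRSS3 and BCAS1 and the control means of all 5 genes lie below the table's median. Their CEE means lie above it, and the sizes of their differences depend on the offset. The probe set without a gene name had means of 94.7 with CEE, 17.9 with CEE+MPA and 16.6 in controls. High values with CEE helped these probe sets pass the filter, so their place among those tested is not separate from the difference. The count was 5 without a filter on low values, 13 without CEE 4 and 12 in a model of the 2 groups alone.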

How the data were processed

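Mammary total RNA of 16 animals (4 groups of 4, 1 array each) was extracted with Tri-reagent and RNeasy columns and labelled with biotin, per the labels' protocols. The deposited values are linear intensities per probe set from Affymetrix software (GCOS and Expression Console are named in the submitters' processing notes, with no versions). On each array their mean after trimming 2% at both ends is 250.02, so the authors scaled the arrays to 1 level, and differences in total RNA cannot be seen. 

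Of 52865 probe sets, 99 Affymetrix controls and those not above the table's median of 60.2 on at least 4 arrays were left out. An offset of 16 was added before log2, which understates changes of dim genes. Group means were fitted with limma 3.58.1 (R 4.3.3) on all 16 arrays without covariates, and p-values were adjusted by Benjamini and Hochberg over 28704 probe sets. The script was tested on simulated data. Symbols come from the platform annotation: 24969 probe sets have 1, 361 several (not named here) and 27535 none. Each gene stands for its brightest probe set among those tested, by mean log2 value. The 47 lists hold 1504 genes, 979 of them tested.

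Genes were named by rule: the 12 largest rises and falls among called genes without overlap between groups (LOC symbols left out), up to 5 called members of each list each way by p (or the member with the smallest p), a panel of 32 hormone and mammary genes, and members with a set role beside them. The members and lists were chosen with earlier results of these data known. Errors are SE unless SD is named. The labels do not say more of the animals' origin than the group, and p-values measure the spread between these samples. The number of arrays limits precision. Alternatives were quantile normalization, median centring, other offsets and filters, fewer groups, array weights, the spike-in set as a block, a skeletal muscle covariate and leaving out arrays. Figures were drawn with matplotlib 3.10.9.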

Additional observations from a re-analysis of the deposited data

Results flagged for a closer look

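In 390 groups of 4 arrays, the named genes and list means of the controls and the CEE+MPA animals, 20 held an array further from the other 3 than Dixon's 95% limit for 4 values. Chance alone gives about 1 in 20 groups. Among the controls, array 1 was highest for F3 (1181). Array 2 was lowest for DLK1 (28.2, the others being at 157 to 197) and KARS1 (3153) and highest for CFD (12571). Array 3 was highest for IGFBP4 (4602) and CSN3 (18724) and lowest for LALBA (10825). Array 4 was highest for C2H3orf18 (221), MS4A7 (941) and WNT4 (159, the others being at 64.9 to 68.2), and lowest for RETN (145) and the mean of the solute carrier list (-0.063 on the centred log2 scale).

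Among the treated animals, array 1, with raised skeletal muscle signal, was highest for F3 (377), CALD1 (4963), CDH13 (678) and the mean of the integrin and laminin list (-0.095). Array 3 was lowest for the mean of the secreted defence list (-0.99). Array 4 was lowest for GMNN (289) and for the mean of the respiratory chain list (0.033), and highest for the mean of the calcium and water handling list (0.14).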

How the results depend on the processing

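Against the control, the 1819 probe sets past the threshold became 984 without a filter on low values, 3729 with array weights and 980 without the 2 arrays of high skeletal muscle signal in these groups and those of the tibolone group. With 1 of the 8 arrays left out the count ran from 348 to 1981. It stayed within 1.5 times with quantile normalization (1323), median centring (1926), offsets of 1 (1666) and 64 (2110), a 75th percentile filter (1938), the 2 groups alone (1730), the spike-in set as a block (2373) and the skeletal muscle covariate (1585). Against CEE, the 6 probe sets became 12 with the 2 groups alone, 14 with array weights, 13 with the skeletal muscle covariate and 13 without the arrays of high skeletal muscle signal, and ran from 5 to 13 with 1 array left out. The cause was not tested. Of the 122 named genes past the threshold, 30 passed in all 20 settings, 4 passed in each of the 19 in which they were tested, and 0 changed direction. No paired analysis was possible because the replicate numbers follow the order of deposition and every animal belongs to 1 group. With 4 animals a group, small changes of dim genes such as ESR1, FKBP5 and TNFSF11 lie near the background of the array.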

Other observations

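The gene families and genes in this section were chosen by symbol after their values were seen, and no test was made of them as groups. Over all 10452 genes 2.74% were higher and 4.96% lower, the shares beside which each family count below is to be read. Without control 2 the calls over all probe sets fell from 1819 to 348. Mitochondrial ribosomal proteins, which build the ribosome of the organelle, had 9 of 62 tested genes higher and 0 lower with CEE+MPA (median log2 fold change 0.36, 59 positive), MRPS24 among them (0.81 ± 0.15, adjusted p = 0.00848). The count was 6 under quantile normalization and 1 without control 2. Translation initiation factors had 8 of 35 higher and 0 lower (median 0.28), 3 under quantile normalization and 1 without control 1, control 2 or CEE+MPA 3; EIF3F changed by 0.69 ± 0.13 (adjusted p = 0.00824). Proteasome subunits had 3 of 32 higher and 0 lower (median 0.20), and 0 without control 2.

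On the lower side, 3 of 10 complement genes fell and 0 rose (median -0.75), the protease C1S (5808, 6541, 6089 and 6291 on the controls, 2823, 2103, 1972 and 3414 on the CEE+MPA arrays; -1.29 ± 0.18, adjusted p = 0.00255), its inhibitor SERPING1 (-1.15 ± 0.17, adjusted p = 0.00304) and CFD. The count was 2 without control 1, 2 or 3 or without any 1 CEE+MPA array, and 6 in a model of the 2 groups alone or with array weights. Without overlap between groups, each treated animal was below each control in C1S. Serpins, a family of protease inhibitors, had 4 of 14 lower and 0 higher (median -0.42), and 1 lower without control 2, with SERPINF1 (-1.32 ± 0.27, adjusted p = 0.014) beside SERPING1 and SERPINA3. LEPR, the leptin receptor gene, fell as well (-1.68 ± 0.39, adjusted p = 0.0219).

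NEFH, the heavy neurofilament gene of neurons, did not pass. Its signals were 37.2, 22.9, 39.6 and 10.9 on the controls, 173, 2990.3, 3384 and 62.3 with CEE and 553, 1615, 414 and 94.2 with CEE+MPA (adjusted p = 0.0539), all treated animals above all controls. The controls lie below the table's median of 60.2, so no size of change is given. PIP, a secreted protein of apocrine glands, read 3112, 9578, 8612 and 5853 against 1663, 1362, 589.9 and 2188 (-2.24 ± 0.66, adjusted p = 0.054), all treated animals below the controls. MBLAC2, a hydrolase gene, read 1985, 3.65, 3.08 and 1133 on the CEE+MPA arrays, at 2 levels far apart within 1 group, and 1013, 1004, 3688 and 7806 on the controls (-3.78 ± 1.97, adjusted p = 0.257).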
